A study of Rattus norvegicus with 17 samples.

Results

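Basement membrane genes were compared in the colon mucosa of 17 female rats that carried the HLA-B27/β2-microglobulin transgenes on an inbred Fisher 344 background and entered the study at 8 to 10 weeks of age. In the high calcium group were 8 rats on a purified Western-type diet with 120 mmol calcium per kg. The low calcium group held 9 rats on the same diet with 30 mmol per kg, and the extra calcium of the high calcium diet took the place of glucose. All rats of both groups carried the transgenes, which bring on colitis, and the question the series asks is how dietary calcium acts on that colitis. RNA of mucosal scrapings from each rat was labelled with Cy5 and hybridised against a Cy3 pool of all animals on 1 array, and every value below is the log2 ratio between a rat and that pool. The genes are Nid1, Nid2, Lama5, Lamb1, Lamc1, Col4a1, Col4a2, Hspg2, Col15a1 and Col18a1. Matching by the array's gene names found 9 of these 10 among 35506 names. Hspg2, which the array lists as LOC313641, was found through its gene ID and is counted apart.

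The basement membrane is the thin sheet of matrix on which the crypt epithelium sits and which also wraps blood vessels, muscle cells and nerves. Its frame is a laminin polymer and a collagen IV network, which nidogens and the proteoglycan perlecan tie together. Laminins are trimers of an alpha, a beta and a gamma chain, and cells hold on to them through integrins and dystroglycan. Collagens XV and XVIII lie at the outer face of the sheet, where it meets the fibrillar collagens of the stroma.

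Of 27101 probes tested with limma, 0 passed a Benjamini-Hochberg adjusted p of 0.05, while 2382 had an unadjusted p under 0.05, and the smallest adjusted p was 0.0984. Between 60.0% and 72.0% of all probes lay well above background on an array. All 13 colon epithelium markers were tested and had a signal. Rats 3 (high calcium) and 16 (low calcium) shared a slide and stood apart from their groups for many of the genes below. Without them 328 probes passed, 313 of them lower at high calcium. These rats were seen from their values to run against the diet difference, and leaving out such rats favours more calls. Counts and p-values without rat 3 or rat 16 therefore show how far a result hangs on them. They are no support for a difference. Labels give the rats as separate animals, and p-values measure the spread between these rats.

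By its brightest probe, a basement membrane gene was lower at high calcium in 8 of the 9 genes found by name, beside 45.7% of all 23135 tested genes. The median difference, high minus low calcium, was -0.26 on the log2 scale, beside 0.0075 over all tested genes. An unadjusted p under 0.05 with a lower value was reached by 7 of the 9, beside 4.89% of all genes, and with a higher value by 0 of the 9, beside 4.13%. With arrays only centred on their median 4 of the 9 did so, Nid1, Nid2, Lamc1 and Col4a2, and with the endothelial or fibroblast covariates described below 4 and 1. After adjustment 0 of the 9 passed the adjusted threshold, beside 0% of all genes. A difference of at least 0.2 downwards was found for 5 of the 9, beside 2.62%. The genes were chosen with earlier results of these data known, so these counts describe them and are no test of the list. The values of the diets overlapped in every one of the 10 genes, so 0 were without overlap in either direction. Of all genes 0.013% (0.0148% of all probes) were without overlap and lower at high calcium. Averaged over the 9 genes, a high calcium rat lay between -0.43 and 0.19 with a median of -0.20, and a low calcium rat between -0.11 and 0.28 with a median of 0.09. The mean of these averages was -0.17 ± 0.18 in high calcium rats and 0.10 ± 0.11 in low calcium rats (SD, n = 8 and 9). Rat 3 was the highest of the high calcium rats and rat 16 the lowest of the low calcium rats. In whole scrapings, fewer cells of a type and less RNA per cell cannot be told apart.

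**Figure D1:**
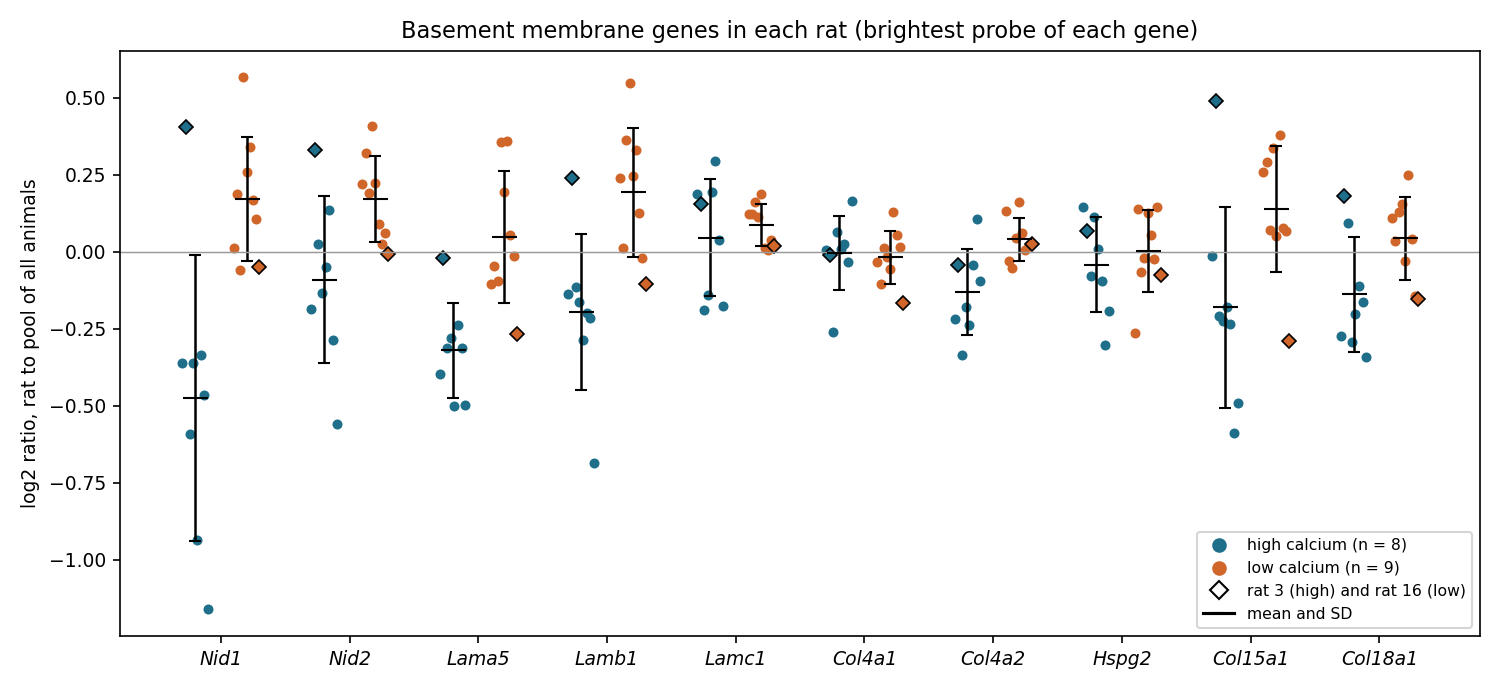
Log2 ratio of each rat to the pool for the brightest probe of each gene, with high calcium rats (n = 8, blue) left of low calcium rats (n = 9, orange), and bars for the mean and SD. Diamonds mark high calcium rat 3, which is the highest of its group for Nid1 (0.41) and Col15a1 (0.49), and low calcium rat 16, which is the lowest of its group for Lama5 (-0.27).

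The nidogens are the rod-shaped linkers between laminin and collagen IV. Nid1 had the largest difference of the 10 genes. In high calcium rats its lowest, median and highest log2 ratios were -1.16, -0.41 and 0.41, and in low calcium rats they were -0.06, 0.17 and 0.57. Rat 3 was the only high calcium rat above any low calcium rat, so 7 of 8 were under the whole low calcium range, and rat 18 was the lowest. Nid1 averaged -0.47 ± 0.47 at high calcium and 0.17 ± 0.20 at low calcium (SD, n = 8 and 9), a difference of -0.65 ± 0.15 (SE) with an adjusted limma p of 0.142. Without rat 3 the difference was -0.77 with an adjusted limma p of 0.0054. Of the 17 fits with a single rat left out this was the only 1 that passed, and the adjusted p ran up to 0.325. Leaving out rat 3 also brought the count of passing probes on the whole array from 0 to 193. That probe lies at chr17:66869378-66870231 of the rn3 build. A further pair of Nid1 probes was not well above background on enough arrays to be tested. No exon or UTR is given for any probe, since no annotation of rn3 was used.

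Nid2, the second nidogen, spanned -0.56 to 0.33 with a median of -0.09 in high calcium rats and -0.01 to 0.41 with a median of 0.19 in low calcium rats. Under the whole low calcium range were 5 of the 8 high calcium rats. The difference was -0.26 ± 0.09, with an adjusted limma p of 0.381, at chr15:4801457-4801516 (rn3). The nidogens differed in this from each other: Nid1 minus Nid2 averaged -0.38 ± 0.31 at high calcium and -0.00058 ± 0.17 at low calcium, a difference of -0.38. By an exact two-sided permutation test over 24310 assignments its p was 0.0060, and 0.0162 after adjustment over the 8 gene pairs compared. The adjusted p stayed between 0.0049 and 0.0348 with each rat left out in turn, and was 0.306 when each array was only centred on its median. Nid2 was the dimmer of the nidogens, and the part of its low signal in their difference was not tested.

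Among the laminin chains, Lama5 encodes the alpha chain of the main epithelial laminin of the adult gut, and Lamb1 and Lamc1 its beta and gamma chains. Lama5 lay between -0.50 and -0.02 with a median of -0.31 in high calcium rats, and between -0.27 and 0.36 with a median of -0.01 in low calcium rats. All 8 high calcium rats were below the low calcium mean, and 6 were below every low calcium rat. The Lama5 difference was -0.37 ± 0.08 with an adjusted limma p of 0.142. Leaving out rat 3 or rat 16 brought the adjusted p to 0.0223 or 0.0420. Only these 2 of the 17 fits with a single rat left out passed, and the adjusted limma p ran up to 0.323.

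Lama5 had 3 tested probes. The brightest, at chr3:169140224-169140283 (rn3), and the second, at chr3:169140525-169140678, gave -0.37 and -0.30. The third, the dimmest, at chr3:169144214-169144352, gave -0.02 ± 0.05. Between the brightest and the third probe the difference itself differed by -0.35 (exact permutation p = 0.0030, adjusted p = 0.0088 over the 7 pairs of probes of the same gene, compared after their values were seen). The values given for Lama5 are therefore those of its brighter probes.

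Lamb1 ranged between -0.69 and 0.24 with a median of -0.18 in high calcium rats and between -0.11 and 0.55 with a median of 0.24 in low calcium rats. As for Nid1, 7 high calcium rats were under the whole low calcium range and rat 3 was not. The Lamb1 difference was -0.39 ± 0.10 (limma, adjusted p = 0.187) at chr6:49181266-49183037 (rn3), and the adjusted p was 0.0264 without rat 3. Only that 1 of the 17 fits with a single rat left out passed for Lamb1, and the adjusted limma p ran up to 0.416. Lamc1, the gamma chain to which nidogen binds, spanned -0.19 to 0.29 with a median of 0.10 at high calcium, against 0.01 to 0.19 with a median of 0.11 at low calcium. Its values were spread on both sides of the low calcium rats, and the difference was -0.04 ± 0.06 (adjusted p = 0.898) at chr13:68265455-68266503, and -0.04 from its other probe. That value moved with the processing, to -0.15 with median centring or in the series matrix, -0.22 in the Cy5 channel alone and -0.27 with the processed signals (adjusted p of 0.165 or more in each). The Lamc1 probes were well above background on all arrays but dim, with a mean log2 signal of 7.25 and 7.19. Beside them stood 8.97 for Lamb1, 8.74 for Nid1 and 9.93 for Lama5 by its brightest probe. The Nid1 probes left untested had 6.84 and 6.83.

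The chains of the same laminin were thus set against each other. Lamb1 minus Lamc1 averaged -0.24 ± 0.25 in high calcium rats and 0.11 ± 0.19 in low calcium rats, a difference of -0.35 (exact permutation p = 0.0072, adjusted p = 0.0162). Lamc1 minus Lama5 differed by 0.33 (exact permutation p = 0.0081, adjusted p = 0.0162), but by -0.02 with the third Lama5 probe. Lamb1 and Lama5 had a difference of -0.02 between them, with a 95% interval of -0.18 to 0.14 and an exact permutation p of 0.791, but of -0.37 with the third Lama5 probe (exact permutation, adjusted p = 0.0130). Nid1 minus Lamc1 averaged -0.52 ± 0.43 at high calcium and 0.08 ± 0.21 at low calcium, a difference of -0.60 (exact permutation p = 0.0022, adjusted p = 0.0162). Of the 8 pairs 5 passed, namely Lamb1 with Lamc1, Lamc1 with Lama5, Nid1 with Lamc1, Nid1 with Nid2 and Col4a1 with Col4a2. None of the 5 passed with median centring (exact permutation, adjusted p from 0.306) or with the Cy5 channel alone (adjusted p from 0.0596). The pairs with Lamc1 set a dim gene against brighter ones, and the part of its low signal in their differences was not tested. Nid2 and Col4a2 were dim too, with a mean log2 signal of 7.7 and 7.6. Their partners Nid1 and Col4a1 had 8.7 and, by the brightest probe, 11.7. The part of signal in these pairs was not tested either.

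Collagen IV of most basement membranes is a trimer of alpha 1 and alpha 2 chains, the products of Col4a1 and Col4a2, which are transcribed in opposite directions from a common promoter. In the RefSeq table of the GRCr8 build, the start sites of the genes lay 77 bases apart. Their windows of 300 bases, which run 250 bases before to 50 after the start, were chr16:84885347-84885646 on the plus strand for Col4a1 and chr16:84885471-84885770 on the minus strand for Col4a2. The windows had 176 bases in common, at chr16:84885471-84885646, of which 75% were G or C. That stretch is shown because both genes are read from it, and stands in capitals in the Col4a1 window, written 5′ to 3′ on the plus strand.
Col4a1: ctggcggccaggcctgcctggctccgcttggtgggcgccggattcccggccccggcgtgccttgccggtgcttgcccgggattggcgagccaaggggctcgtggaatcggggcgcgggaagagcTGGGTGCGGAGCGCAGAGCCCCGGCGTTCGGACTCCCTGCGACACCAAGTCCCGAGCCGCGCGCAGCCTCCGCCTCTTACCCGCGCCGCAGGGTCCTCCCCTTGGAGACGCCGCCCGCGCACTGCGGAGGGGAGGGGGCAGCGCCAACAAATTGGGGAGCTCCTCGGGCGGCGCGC

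The array gave Col4a1 by 2 probes with unlike values. Its brightest probe, at chr16:83031262-83031321 (rn3), lay between -0.26 and 0.17 with a median of 0.01 in high calcium rats and between -0.17 and 0.13 with a median of -0.02 in low calcium rats, and differed by 0.01 ± 0.05 (adjusted p = 0.960). The other probe, 112 kb away at chr16:83143399-83143458, spanned -0.66 to 0.30 with a median of -0.29 in high calcium rats and -0.21 to 0.60 with a median of 0.28 in low calcium rats. With the second probe 5 of 8 high calcium rats were below every low calcium rat, and the difference was -0.51 ± 0.11 (limma, adjusted p = 0.142). Leaving out rat 3 or rat 16 brought that adjusted p to 0.0146 or 0.0412. For the second probe only these 2 of the 17 fits with a single rat left out passed, with an adjusted limma p of up to 0.323. Both probes were well above background on all 17 arrays. Their difference differed between the diets by 0.52 (exact permutation p = 0.0020, adjusted p = 0.0088 over the 7 probe pairs). After each diet's mean was taken out, their ratios had a Pearson r of 0.0802 and a Spearman rho of 0.108 across the 17 rats (permutation p = 0.758 and 0.689, 10 relations with the second probe computed, adjusted p = 0.842), and r was -0.109 without rats 3 and 16. Which probe gives the level of Col4a1 was not tested, and its difference is reported by probe throughout.

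**Figure D2:**
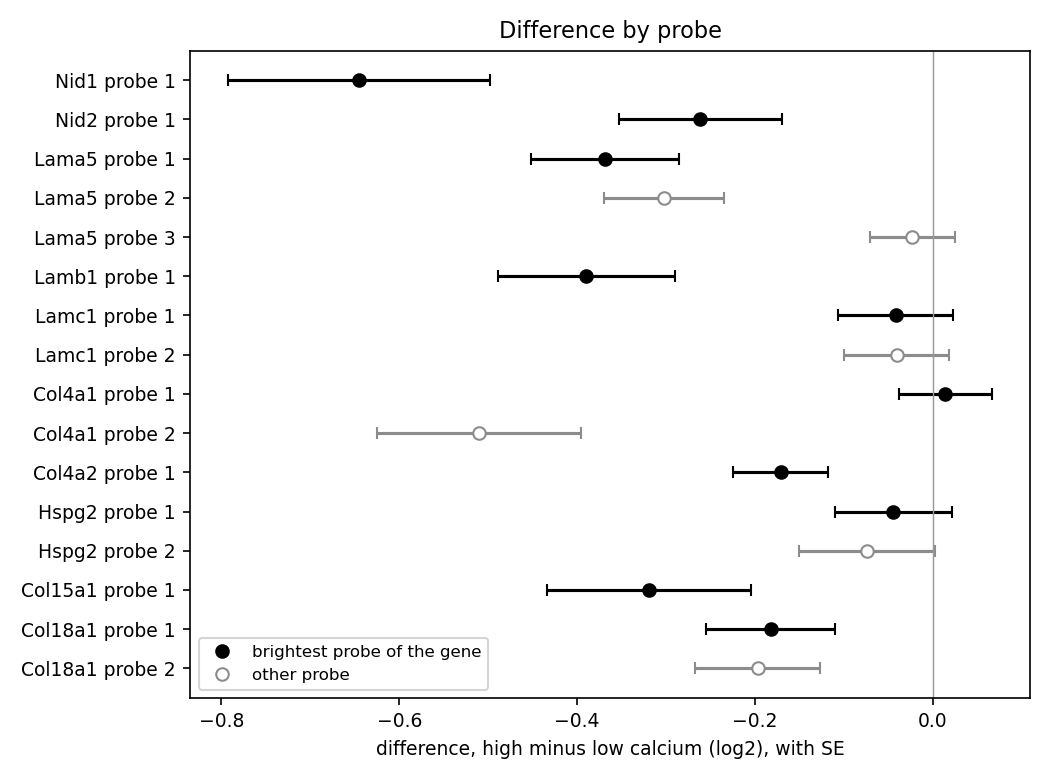
Difference between high and low calcium rats (log2, high minus low) with its SE from limma for each tested probe, 1 row per probe, where filled points are the brightest probe of a gene and open points the others. The Col4a1 probes sit at 0.01 and -0.51, the Lama5 probes at -0.37, -0.30 and -0.02, and the Lamc1, Hspg2 and Col18a1 probes lie close to their partners.

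Col4a2 lay between -0.34 and 0.11 with a median of -0.14 in high calcium rats and between -0.05 and 0.16 with a median of 0.03 in low calcium rats. Its difference was -0.17 ± 0.05 (limma, adjusted p = 0.311) at chr16:82886154-82886213 (rn3), and 5 high calcium rats were below every low calcium rat. Col4a1 minus Col4a2 differed by 0.19 with the brightest Col4a1 probe (exact permutation p = 0.0110, adjusted p = 0.0176; 0.17 and adjusted p = 0.0593 with slide as a block), and by -0.34 with the other one (adjusted p = 0.0498), so the order of the chains turned with the probe. Across the rats, with the diet means taken out, Col4a1 by its brightest probe and Col4a2 had a Pearson r of 0.281 and a Spearman rho of -0.0343 (permutation p = 0.353 and 0.901, adjusted p = 0.600 over 45 gene pairs), and r was -0.130 without rats 9 and 18.

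Hspg2 encodes perlecan, the large heparan sulphate proteoglycan that binds growth factors and joins laminin to collagen IV. It ranged between -0.30 and 0.15 with a median of -0.04 in high calcium rats and between -0.26 and 0.15 with a median of -0.02 in low calcium rats. The groups covered nearly the same range, and the difference was -0.04 ± 0.07 (adjusted p = 0.894) at chr5:156336310-156336468 (rn3). Its second probe, 60.2 kb away, gave -0.07 ± 0.08. The Hspg2 probes did not follow each other across the rats. With the diet means taken out they had a Pearson r of -0.0883 and a Spearman rho of -0.027. Which of them gives the level of Hspg2 was not tested.

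Col15a1 and Col18a1 encode the multiplexin collagens, which carry heparan or chondroitin sulphate, and the C-terminal part of collagen XVIII is the source of endostatin. Col15a1 spanned -0.59 to 0.49 with a median of -0.22 in high calcium rats and -0.29 to 0.38 with a median of 0.08 in low calcium rats. Rat 3 was its highest value of all and rat 16 the lowest of the low calcium rats, and the difference was -0.32 ± 0.11 (adjusted p = 0.396) at chr5:63930902-63930961 (rn3). Without rat 3 it was -0.41 with an adjusted p of 0.0363. For Col15a1 only that 1 of the 17 fits with a single rat left out passed, and the adjusted limma p ran up to 0.773. Col18a1 lay between -0.34 and 0.18 with a median of -0.18 in high calcium rats, against -0.15 to 0.25 with a median of 0.04 in low calcium rats. The difference was -0.18 ± 0.07 (adjusted p = 0.467) at chr20:11981644-11981703, and -0.20 by its second probe, whose adjusted p was 0.0403 without rat 3. The second probe, at chr20:11981621-11981680, overlaps the brightest, so these Col18a1 probes are no independent measures. With a single rat left out, the second Col18a1 probe passed in 1 of 17 fits (adjusted limma p of up to 0.721) and the brightest in 0. Col15a1 minus Col18a1 differed by -0.14, with a 95% interval of -0.34 to 0.07 and an exact permutation p of 0.177. Hspg2 minus Col18a1 differed by 0.14, with an interval of -0.09 to 0.37 and an exact permutation p of 0.224.

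The arrays came from 5 slides, and slides 1 to 4 each held 2 high and 2 low calcium rats, while slide 5 held 1 low calcium rat. The average of the 9 genes differed by 0.03, -0.38, -0.34 and -0.36 within slides 1 to 4. On slide 1, which held rats 3 and 16, the difference was thus near 0, and on the other slides it was similar. Nid1 differed by -0.05, -0.73, -0.93 and -0.95, Lamb1 by 0.10, -0.59, -0.53 and -0.50, and Lama5 by -0.05, -0.43, -0.65 and -0.43. Nid1, Nid2, Lama5 and Col4a2 were lower at high calcium within all 4 slides, and Lamb1, Col15a1 and Col18a1 within 3. Lamc1, Hspg2 and Col4a1 by its brightest probe were lower within 2.

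**Figure D3:**
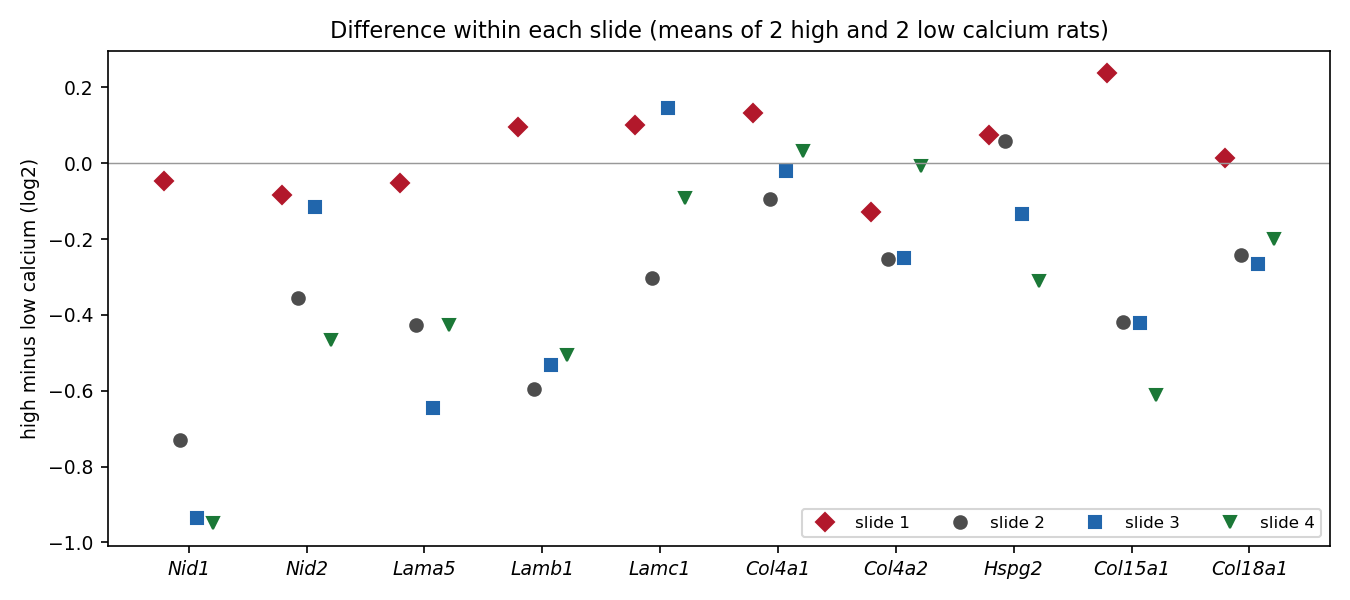
Difference between the means of the 2 high and the 2 low calcium rats of each slide (log2, high minus low) for each gene, by its brightest probe. On slide 1 (diamonds) Nid1 differed by -0.05 and Col15a1 by 0.24, and on slides 2 to 4 they differed by -0.73 to -0.95 and by -0.42 to -0.61.

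How the genes varied together among rats of the same diet was measured by correlation after each diet's mean was taken out, for 45 gene pairs over 17 rats with 100000 permutations within diet. Pearson's r ran from -0.413 to 0.796 with a median of 0.287, was above 0 for 36 pairs, and had an adjusted p of 0.05 or less for 13 pairs. Those 13 pairs all lay among Nid1, Nid2, Lama5, Lamb1, Col15a1 and Col18a1. The share of pairs of other genes on the array that reach this was not computed. The count therefore does not show that varying together is particular to these genes. Nid1 and Lama5 had the highest r, 0.796, with a rho of 0.870 (permutation p = 1e-05, the smallest 100000 permutations can give, and 3e-05, adjusted p = 0.00045). Their r was 0.815 without rats 3 and 18, the farthest from the Nid1 median, and 0.921 with the slide means also taken out. Nid1 and Nid2 had an r of 0.717 and a rho of 0.512 (permutation p = 0.0106 and 0.0514, adjusted p = 0.0366), and an r of 0.258 without rats 3 and 18, so that this relation rested on those rats. Nor was it alone in this. Without the 2 rats farthest from the median of the pair's first gene, r fell in all 13 pairs except Nid1 with Lama5. Without rats 3 and 18, Nid1 with Col15a1 fell from 0.720 to 0.375 and Nid2 with Lamb1 from 0.761 to 0.451. Lamb1 with Lama5 fell less, from 0.737 to 0.679. Without rats 3 and 16 the median r over the 45 pairs was 0.234. The mean of the basement membrane genes was also set against the marker lists described below, with diet means taken out. Its r was 0.837 with fibroblast, 0.827 with endothelial and 0.824 with neutrophil markers. With colon epithelium markers it was -0.72, and with lymphocyte markers -0.00869.

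The second Col4a1 probe was set against the same genes. It had an r of 0.878 and a rho of 0.897 with Col18a1 (permutation p = 2e-05 each, adjusted p = 2e-04) and an r of 0.877 and a rho of 0.787 with Lamb1 (permutation p = 6e-05 and 0.00064, adjusted p = 3e-04). Without rats 3 and 16, the farthest from its median, both r were 0.809. With Col4a2 its r was -0.0031 and its rho -0.0784 (permutation p = 0.991 and 0.768, adjusted p = 0.991), and -0.187 without those rats.

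**Figure D4:**
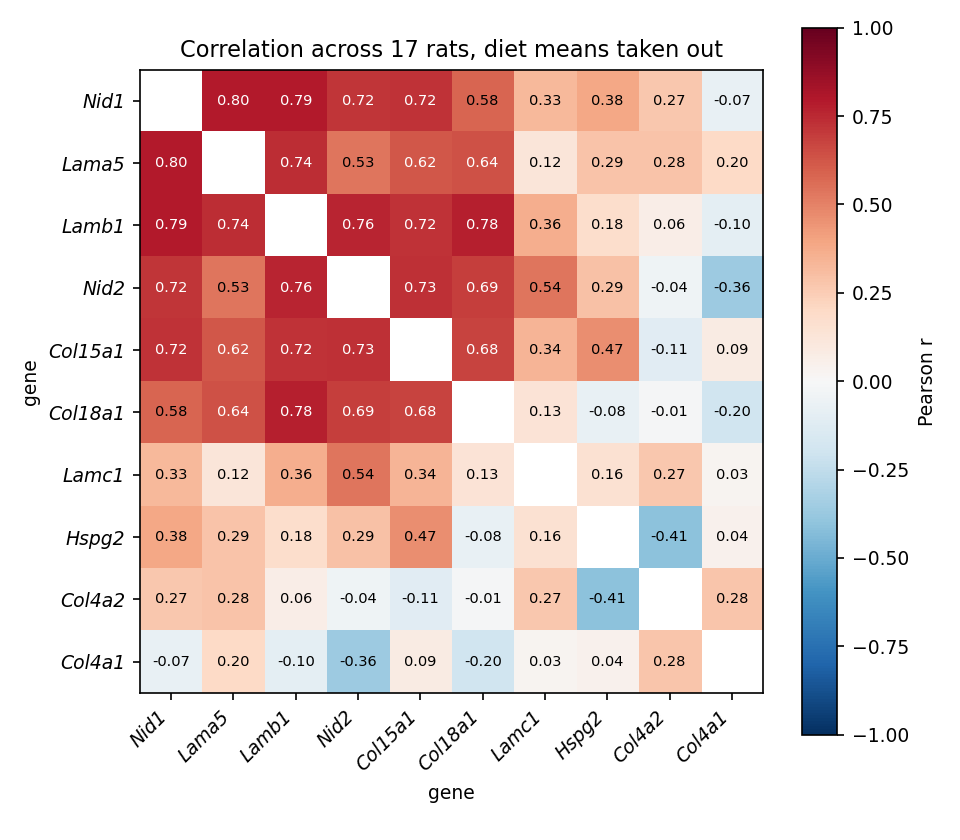
Pearson r between the log2 ratios of each pair of genes across 17 rats after the mean of each diet was taken out, with red for r above 0 and blue below. Nid1, Lama5, Lamb1, Nid2, Col15a1 and Col18a1 form the red block with r up to 0.796, and Hspg2 with Col4a2 has the lowest r, -0.413.

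Promoters were looked up for all 10 genes, whether or not they varied together. RefSeq's GRCr8 table held a window for 9 of the 10 genes, all but Nid2. The hexamer GGGCGG, the core of a GC box, was searched on both strands, so CCGCCC on the printed strand also counts, and occurred in 8 of the 9 windows, beside 33.1% of all 33469 windows of the same length. CCAAT occurred in 3 of the 9, beside 37.5%, and TATAAA in 0 of the 9, beside 14.2%, with both strands searched. The windows of Col4a1 and Col4a2 are not independent, since they have 176 bases in common. All GGGCGG or CCGCCC matches of both genes and the CCAAT of Col4a2 lie there, so the same letters count for both. The share of G and C ran from 55% in Col15a1, the window without GGGCGG, to 75% in Col4a1, beside a median of 51.7% over all windows. A match describes the letters and not a bound site. Shown are the windows of the 3 genes with the largest differences by their brightest probe, written 5′ to 3′ on each gene's strand, with GGGCGG or CCGCCC in capitals. They lie at chr17:93069036-93069335 (plus strand) for Nid1, chr3:187695925-187696224 (minus strand) for Lama5 and chr6:53562846-53563145 (plus strand) for Lamb1.
Nid1: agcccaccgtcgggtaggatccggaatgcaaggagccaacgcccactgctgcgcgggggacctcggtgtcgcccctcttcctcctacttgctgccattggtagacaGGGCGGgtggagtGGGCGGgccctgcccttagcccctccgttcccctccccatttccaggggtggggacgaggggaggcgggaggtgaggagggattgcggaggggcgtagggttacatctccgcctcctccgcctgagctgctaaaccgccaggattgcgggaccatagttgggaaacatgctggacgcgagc
Lama5: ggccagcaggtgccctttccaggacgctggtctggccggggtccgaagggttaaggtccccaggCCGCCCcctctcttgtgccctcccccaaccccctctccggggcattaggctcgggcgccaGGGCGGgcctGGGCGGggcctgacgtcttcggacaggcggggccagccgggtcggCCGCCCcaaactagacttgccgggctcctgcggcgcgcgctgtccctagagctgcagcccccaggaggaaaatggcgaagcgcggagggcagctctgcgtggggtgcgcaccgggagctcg
Lamb1: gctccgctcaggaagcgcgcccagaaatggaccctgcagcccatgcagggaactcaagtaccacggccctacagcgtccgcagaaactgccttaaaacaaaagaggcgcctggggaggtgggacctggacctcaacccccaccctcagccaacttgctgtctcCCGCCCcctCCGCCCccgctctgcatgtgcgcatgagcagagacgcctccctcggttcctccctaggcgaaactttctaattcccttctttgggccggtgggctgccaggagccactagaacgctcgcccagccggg
The hexamer stood 2 times in the Nid1 window, 4 times in that of Lama5 and 2 times in that of Lamb1.

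Other genes of the basement membrane were described by lists, in which 0 genes passed the adjusted threshold. Of 12 other laminin and collagen IV chains 11 were tested, 9 were lower and 2 higher at high calcium, and the median difference was -0.02. Lama4, the alpha chain of vessel walls, had the smallest p among them, with -0.39 ± 0.11 (limma, adjusted p = 0.243). Lama1 gave -0.10 ± 0.05 (adjusted p = 0.535) and Col4a5 0.08 ± 0.05 (adjusted p = 0.674).

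Of 22 other basement membrane proteins 12 were tested, of which 8 were lower and 4 higher, with a median of -0.05. Fn1, which encodes fibronectin, had a difference of -0.75 ± 0.18 (limma, adjusted p = 0.156) and averaged -0.43 at high and 0.33 at low calcium. Sparc, a collagen-binding glycoprotein, differed by -0.44 ± 0.11 (adjusted p = 0.187). Tinagl1 and Fbln1 gave -0.18 and -0.14.

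All 15 receptors were tested, and 8 were lower and 7 higher, with a median of -0.0013. Itga1, the integrin chain of a collagen IV receptor, differed by -0.37 ± 0.10 (adjusted p = 0.239), and Bcam, a receptor of the laminin alpha 5 chain, by -0.11 ± 0.05 (adjusted p = 0.556). Sdc1, a heparan sulphate proteoglycan of the epithelial cell surface, gave -0.12, and Itga7, the alpha chain of a laminin-binding integrin of muscle, 0.13.

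Of 19 genes that process collagen IV or heparan sulphate 17 were tested, 11 lower and 6 higher, with a median of -0.08, and 7 had an unadjusted p under 0.05, all lower, beside 4.89% of all genes lower and 4.13% higher at that level. Serpinh1, the collagen chaperone of the endoplasmic reticulum, differed by -0.39 ± 0.12 (adjusted p = 0.280). Sulf1, which trims heparan sulphate, gave -0.37, Loxl2, a collagen cross-linking enzyme, -0.29, and Plod1, a collagen lysyl hydroxylase, -0.19.

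Markers of cells that make basement membrane were measured in the same rats. Of 10 fibroblast markers 9 were tested, all 9 lower at high calcium with a median of -0.47, and their mean per rat ran from -0.70 to 0.19 in high calcium rats and from -0.10 to 0.47 in low calcium rats. Col1a1 and Dcn, whose probes were the brightest of them, differed by -0.53 ± 0.12 and -1.03 ± 0.22 (adjusted p = 0.142 each). Of 10 endothelial markers 7 were tested, 6 of them lower, with a median of -0.14 and a mean per rat of -0.34 to 0.10 at high calcium, against -0.16 to 0.07 at low calcium. The endothelial markers Pecam1, Tek and Tie1 were not well above background on enough arrays. Pericyte markers were lower for 3 of 5 tested, with -0.16 to 0.22 at high calcium and -0.16 to 0.22 at low calcium. Smooth muscle markers were lower for 3 of 6 tested of 9 listed, with -0.29 to 0.18 at high calcium and -0.33 to 0.18 at low calcium. Colon epithelium markers were higher for 10 of 13, with a median of 0.08, -0.14 to 0.31 at high calcium and -0.29 to 0.15 at low calcium.

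Immune cell markers were measured as well. Macrophage markers were lower for 5 of 6 tested of 7 listed, with a mean per rat of -0.24 to 0.01 at high calcium and -0.12 to 0.22 at low calcium. Neutrophil markers were lower for all 5, with -0.70 to 0.39 at high calcium and -0.32 to 0.64 at low calcium, and lymphocyte markers for 3 of 5 tested of 7 listed, with -0.25 to 0.11 at high calcium and -0.16 to 0.24 at low calcium. With the fibroblast mean of each rat as a covariate, an alternative added after seeing the data, the median difference over the 9 basement membrane genes was -0.00055, and 5 of the 9 were lower. Nid1 then differed by -0.10, Lama5 by -0.09, Lamb1 by 0.01 and Col4a2 by -0.18, and the second Col4a1 probe by -0.0043. With the endothelial mean as a covariate, also added later, the median was -0.07. The covariate carries the diet difference too, and the part of any cell type in the results was not tested.

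**Figure D5:**
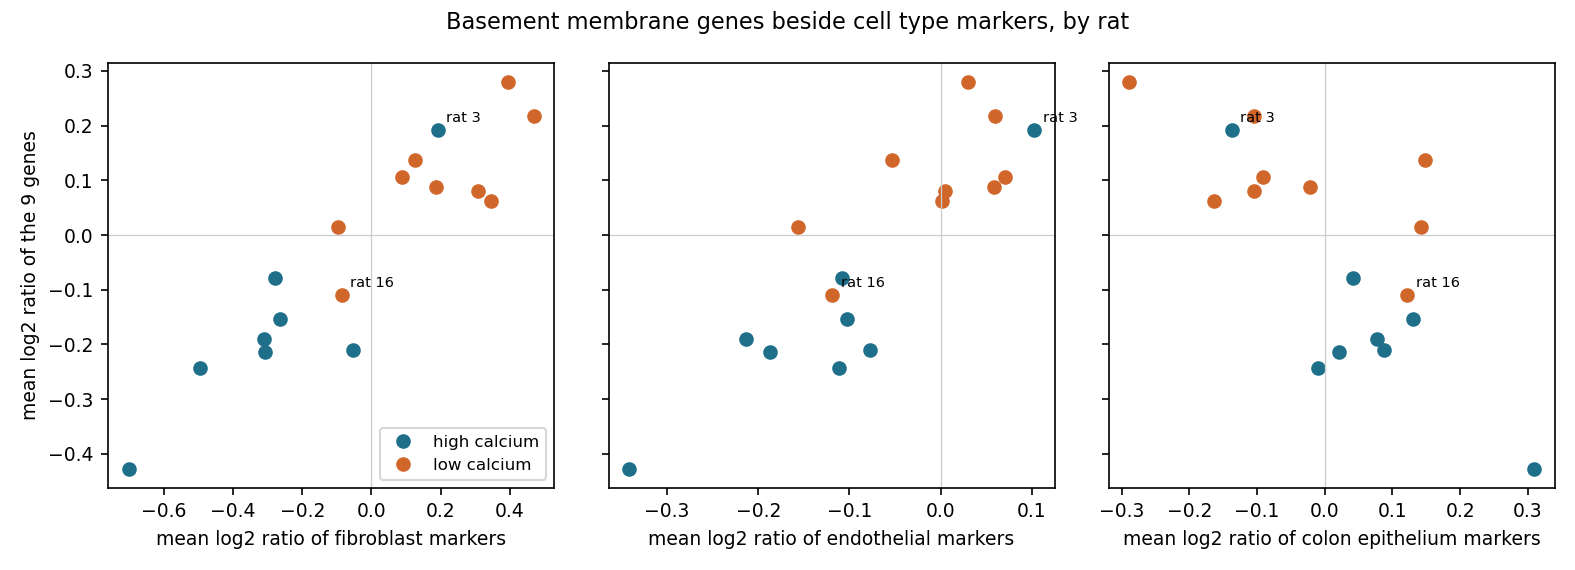
Mean log2 ratio of the 9 basement membrane genes in each rat against the mean of the fibroblast, endothelial and colon epithelium markers of that rat, with high calcium rats in blue (n = 8) and low calcium rats in orange (n = 9). High calcium rat 3 (0.19 on the vertical axis) lies among the low calcium rats, and low calcium rat 16 (-0.11) among the high calcium rats.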

How the data were processed

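Colon mucosa of 17 rats was measured on 2-colour arrays, 1 per rat. The deposited scanner files hold spot intensity values of both dyes, background and flags, per the file headers from Agilent Feature Extraction 9.5.1.1 (the submitters' processing notes name 9.5), and a log10 ratio that, per the file headers, is the software's processed signal. The deposited series matrix holds log2 values; the sources used here do not say how the authors made them. It held 28213 of 45018 features, followed the uncorrected log2 ratio of Cy5 to Cy3 (r = 0.983 over all genes and arrays after centring; these are no independent replicates), had a median of 8.76 on every array, and its offset is unknown. It served as an alternative.

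In R 4.3.3 with limma 3.58.1, intensities went through normexp background correction (offset 50) and loess within each array, where control and outlier-flagged spots had weight 0. Outlier spots were set to missing and spots of a probe averaged, from 43379 spots to 41012 probes. The 27101 probes tested were well above background in the Cy5 channel of 8 or more arrays. Median Cy5 signal was 146.8 to 180.8 per array over a background of 43.5 to 53.5, and no array had more than 3 saturated spots. The number of arrays limits the precision. Because each array was normalised to itself, a shift common to most genes is invisible, and with no dye swap a dye effect is shared by both diets. Coordinates of probes are rn3, per the file headers.

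The diets were compared by limma (lmFit and eBayes, two-sided, no covariate), adjusted by Benjamini-Hochberg over all probes, and pairs of genes by an exact permutation test; intervals of their difference use the pooled spread. A gene was given by its brightest tested probe, its other probes beside it. Through the RefSeq symbols of GRCr8, 10735 probes were named by accession, 5577 by symbol, 1217 by gene ID and 3730 by synonym. The other 19753 carry the name the array gives. The fit and the exact test were tested on simulated data. The genes and lists were chosen with earlier results of these data known, so no test is made over a list. Named beside them are up to 4 genes with the smallest p in each related list and the markers with the brightest probes. So are the 8 other genes most like the mean of the basement membrane genes' standardised ratios. Of the genes so named, 1 is not reported here. Alternatives covered background, normalisation, filter, slide, weights, covariates, probes and each rat left out.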

Additional observations from a re-analysis of the deposited data

Results flagged for a closer look

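Single rats far from their group were looked for in 32 sets, each of the tested probes of the 10 genes within each diet, and 4 were found, where chance gives about 1 in 20. By the second Hspg2 probe high calcium rat 14 had a log2 ratio of -0.66, with the nearest high calcium rat at -0.08. By the brightest Col4a1 probe high calcium rat 9 lay at -0.26, with the nearest at -0.03. By the second Lamc1 probe low calcium rat 15 lay at -0.24, with the nearest at -0.02. For Col15a1 low calcium rat 16 lay at -0.29, with the nearest low calcium rat at 0.05.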

How the results depend on the processing

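The count of probes past the threshold, 0, became 2 with the scanner software's processed signals, 35 with a smooth muscle covariate, 1 with a fibroblast covariate and 328 without rats 3 and 16, and ran from 0 to 193 with single rats left out (193 without rat 3, 38 without rat 16). The 9 genes had 8 to 9 lower and a median of -0.32 to -0.19 with each rat left out. Covariates added after seeing the data moved the median to -0.069 (endothelial) and -0.00055 (fibroblast, 5 genes lower). With the processed signals Nid1 differed by -0.98, Nid2 by -0.57, Lamc1 by -0.27 and Col4a2 by -0.38.

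The sign of a difference turned as follows, and the cause was not tested. Hspg2 gave 0.030 with median centring, 0.010 with array weights and 0.011 with the fibroblast covariate; its second probe gave 0.047 in Cy5 alone, 0.040 in the series matrix and -0.10 to 0.0026 with single rats left out. Col4a1 gave -0.027 in Cy5 alone, -0.0028 without rats 3 and 16, -0.012 with the endothelial and with the fibroblast covariate, -0.51 by its other probe and -0.0099 to 0.051 with single rats left out. The third Lama5 probe gave 0.0061 in Cy5 alone and 0.021 in the series matrix. Lamc1 gave 0.030 with the endothelial covariate, and its second probe 0.020 with that and 0.052 with the fibroblast covariate. The fibroblast covariate also gave 0.020 for Nid2, 0.011 for Lamb1, 0.065 for Col15a1, 0.10 for Col18a1 and 0.0094 for its second probe.

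Of the gene pairs, Nid1 minus Nid2, Col4a1 minus Col4a2, Lamb1 minus Lamc1, Lamc1 minus Lama5 and Nid1 minus Lamc1 no longer passed with median centring (-0.32, 0.25, -0.20, 0.16 and -0.49) or in Cy5 alone (-0.33, 0.14, -0.23, 0.16 and -0.52), in that order. Lamc1 minus Lama5 also missed with a normexp offset of 0 (0.35) and the processed signals (0.12), Lamb1 minus Lamc1 with the processed signals (-0.30), and Col4a1 minus Col4a2 with slide as a block (0.17). Col15a1 minus Col18a1 passed without rats 3 and 16 (-0.22). Lamb1 minus Lama5 was 0.0040 with slide as a block and -0.043 to 0.024 with single rats left out. Added later, the third Lama5 probe gave -0.37 for Lamb1 minus Lama5, which then passed, and -0.019 for Lamc1 minus Lama5, and the other Col4a1 probe -0.34 for Col4a1 minus Col4a2. Array weights and covariates were not run for the pairs. No paired analysis was possible because no replicate number occurs in both diets.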

Other observations

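Outside all lists, the 8 named genes whose log2 ratio was most like the mean of the basement membrane genes across the 17 rats, with diet means taken out, were Bst1, Fndc3b, Eno2, Tns1, Fcgr2b, Bhlhe41, Ccn2 and Krt7. They were chosen by this likeness, so it is a description with no p. The Pearson r ran from 0.859 for Krt7 to 0.892 for Bst1, and without rats 3 and 16 from 0.670 for Krt7 to 0.827 for Bst1. All 8 were lower at high calcium and 0 passed the adjusted threshold. Ccn2, a secreted matricellular protein, differed by -0.52 ± 0.18 (adjusted p = 0.356 by limma), and Tns1, which links integrins to actin, by -0.45 ± 0.12 (adjusted p = 0.203). Fcgr2b, an inhibitory receptor for immunoglobulin G on immune cells, differed by -0.58 ± 0.19 (adjusted p = 0.317), and Krt7, a keratin of simple epithelia, by -0.58 ± 0.12 (adjusted p = 0.142).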
